A study of Mus musculus with 2 samples.

Results

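Mir22 and the 3 Mir26 loci were described in smRNA-seq data of 2 mouse libraries, 1 of mESCs and 1 of E15.5 male prospermatogonia. The members were all features of the deposited miRNA table with the names Mir22, Mir26a-1, Mir26a-2 and Mir26b, which are 4 of its 1638 features. They were thus chosen by name, as miRNAs that act on Tet genes, with the levels of these features in both libraries already known, so that the levels are a description. The mESC library came from E14, a line of wild-type mouse embryonic stem cells. The methods describe E14 cells as naive, grown without feeders in serum-free medium with LIF and inhibitors of MEK and GSK3, but the labels do not state the culture of the cells in this library, and the table of datasets names them mESC where it names those of other assays naive mESC. The other library came from germ cells of male embryos at E15.5, whose C57Bl/6J mothers carried an Oct-4/GFP transgene, which is active in the embryonic gonad. The sample label gives its genotype as wild type and its cells as primordial germ cells, whereas the table of datasets of the study calls them prospermatogonia, the name used here. How many embryos were pooled is not given in the sources used here.

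miRNAs are short RNAs that pair with target mRNAs, mainly through their seed (bases 2 to 8), and lower the output of these mRNAs. miR-22 and miR-26 are both known to act on the mRNAs of Tet1, Tet2 and Tet3, the enzymes that oxidize methylated cytosine, and these enzymes take part in the removal of DNA methylation in germ cells. Both miRNAs are also made in many somatic tissues. Each hairpin precursor can give a mature miRNA from its 5p arm and one from its 3p arm, and the table holds a single value per hairpin, so that the arms could not be told apart. Levels of Tet mRNAs were not analysed here.

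The mature sequences are shown because the seed defines the targets and the rest of the sequence decides whether a read can be assigned to a single locus. They are those of RefSeq on GRCm38.p6, in which all 4 members had a hairpin at exactly the deposited position, and the seed is in capitals.
miR-22-3p: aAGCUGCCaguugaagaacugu
miR-22-5p: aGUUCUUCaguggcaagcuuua
miR-26a-5p: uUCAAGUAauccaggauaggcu
miR-26b-5p: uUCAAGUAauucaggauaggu
miR-26a-1-3p: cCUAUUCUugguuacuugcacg
miR-26a-2-3p: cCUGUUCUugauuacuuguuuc
miR-26b-3p: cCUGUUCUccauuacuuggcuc

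miR-26a-5p and miR-26b-5p shared the seed UCAAGUA, which no other listed mouse mature miRNA had. Over the 21 bases that could be compared they differed at 2 positions, C11U and C21U, counted from 1 at the 5′ end with the base of miR-26a-5p first. The seed AGCUGCC of miR-22-3p was found in no other listed mature miRNA. The sequence of miR-26a-5p was present in full at 2 loci, Mir26a-1 and Mir26a-2, whereas the other 6 mature sequences were each present at 1. The hairpins of both Mir26a loci are shown with their mature sequences in capitals, since only the bases outside the 5p arm distinguish them.
Mir26a-1: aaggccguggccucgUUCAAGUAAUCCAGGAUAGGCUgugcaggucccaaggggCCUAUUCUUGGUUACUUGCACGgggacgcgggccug
Mir26a-2: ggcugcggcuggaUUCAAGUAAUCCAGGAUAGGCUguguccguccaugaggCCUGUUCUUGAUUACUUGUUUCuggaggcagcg

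The 3p arms of Mir26a-1 and Mir26a-2 differed at 6 of 22 positions. A read of either 3p arm could therefore be assigned to its locus, whereas a read of the 5p arm matched both loci equally well.

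The Mir26 loci lie on different chromosomes, each on the plus strand within a gene of the same small family of phosphatases that act on RNA polymerase II. Mir26b lies at chr1:74394310-74394394 (GRCm38) in an intron of Ctdsp1. Mir26a-1 lies at chr9:119031796-119031885 in an intron of Ctdspl. Mir26a-2 lies at chr10:126995530-126995613 in Ctdsp2, where an exon of 2 of the 3 overlapping transcripts in GENCODE vM21 covers it, in no case as coding sequence. Mir22 lies at chr11:75463716-75463810, also on the plus strand, in exons of both transcripts of the noncoding gene Mir22hg and of a noncoding transcript of Tlcd2. None of the 4 overlapped another feature of the table.

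The label of these miRNAs as regulators of Tet genes was set against the annotated 3′ UTRs of these genes. For each gene the transcript with the longest 3′ UTR in GENCODE vM21 was searched, on the transcript strand alone, for the complement of the seed, which is GGCAGCT for miR-22-3p and TACTTGA for miR-26a-5p and miR-26b-5p. Windows of 30 bases on GRCm38 are shown for the matches, all on the minus strand, with the match in capitals. miR-22-3p had 2 matches in Tet1, at chr10:62808505-62808534 and chr10:62805469-62805498, 1 match in Tet2, at chr3:133465316-133465345, and 1 match in Tet3, at chr6:83364096-83364125.
Tet1, first match to miR-22-3p: cccctacttcagtgctGGCAGCTcactgtg
Tet1, second match to miR-22-3p: ttatagctaaactatgGGCAGCTtttgcat
Tet2, match to miR-22-3p: aaaccgaaagagaataGGCAGCTggtttat
Tet3, match to miR-22-3p: agctaggctcagagaaGGCAGCTtgctctg

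miR-26a-5p and miR-26b-5p had 2 matches in each of the 3 genes. These lay at chr10:62804920-62804949 and chr10:62804888-62804917 in Tet1, at chr3:133464901-133464930 and chr3:133464015-133464044 in Tet2, and at chr6:83362797-83362826 and chr6:83362760-83362789 in Tet3.
Tet1, first match to miR-26: ggacgcttcgtagcagTACTTGAatacctg
Tet1, second match to miR-26: agttggaattgcatgtTACTTGAaagatct
Tet2, first match to miR-26: acataccatttttaaaTACTTGAtttctta
Tet2, second match to miR-26: tgcttggtgtcaacatTACTTGAatgaatt
Tet3, first match to miR-26: gtgaacttaacaaccaTACTTGAatattcc
Tet3, second match to miR-26: ctttgtaaactgtggcTACTTGAaatgaag

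Of the 6 matches to miR-26, 5 were followed by an A, the base opposite the first base of the miRNA, and of the 4 matches to miR-22-3p none was. The 3′ UTRs were long, with 7962 bases for Tet1, 3058 for Tet2 and 5669 for Tet3, and long 3′ UTRs often hold such short matches. Among 3′ UTRs within 10% of these lengths, GGCAGCT was found in 45.8%, 23.6% and 40.7%, and TACTTGA in 47.2%, 21.3% and 36.2%, in the same order of genes. Over all 20909 genes with a 3′ UTR the shares were 12.7% and 9.68%. The matches are a description of sequence and were not set against any measure of Tet mRNA.

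The deposited log2 values were whole multiples of the value of a single read in linear form, within 0.0165 reads, so that reads could be recovered. The mESC library held 110455 reads on miRNA features and the prospermatogonia library 155237. Read as log2 RPM (reads per 1000000 of the library), the values correspond to 449643 reads in all for mESCs and 2869578 for prospermatogonia, 6.38 times as many. Shares of miRNA reads do not depend on this reading and are given with exact 95% binomial intervals, which cover counting error only. For a count of 0 the limit used was 3 reads, which is 0.00272% of the miRNA reads in mESCs and 0.00193% in prospermatogonia. The exact interval of a count of 0 reaches slightly higher than this limit. Each condition had 1 library, so that no difference has a replicate check and none was tested.

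The libraries were checked with marker miRNAs of mESCs, of blood and endothelium, and of gonad soma and mesenchyme. No list of germ cell markers was used. The 12 listed features of the Mir290 and Mir302 clusters, taken here as markers of mESCs, held 24.7% of the miRNA reads in mESCs, all 12 with more than 3 reads. In prospermatogonia they held 3.25%, and 6 had more than 3 reads, the highest being Mir292 with 2058 and Mir295 with 1624. Mir302b, Mir302c and Mir367 had no read in prospermatogonia, against 44, 7 and 4 reads in mESCs. Of 7 blood and endothelial features, 4 had more than 3 reads in each library. The 7 together held 0.636% of the miRNA reads in mESCs and 0.124% in prospermatogonia. In the same order of libraries, Mir142 had 400 and 124 reads, Mir126 255 and 40, Mir150 35 and 5, and Mir155 13 and 22. The erythroid Mir144 and the myeloid Mir223 had no read in either library. Of 10 features of gonad soma and mesenchyme, 6 exceeded 3 reads in mESCs and 5 in prospermatogonia, with summed shares of 3.57% and 0.881%. The fall in the sum lay mainly in Mir21, with 2215 reads in mESCs and 486 in prospermatogonia, and Mir143, with 1393 and 260. The gonadal Mir202 went the other way, with 0 reads in mESCs and 57 in prospermatogonia, and the share of Mir140, the highest of the 10 in prospermatogonia with 558 reads, was 0.253% in mESCs and 0.359% in prospermatogonia. Mir199a-1 and Mir199a-2 had no read in either library, but they share both mature sequences, so that these zeros say little. The part of such cells in the levels below was not tested.

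Mir22 was among the most abundant miRNA features of both libraries. How reads with several matches were counted is not given. Features with a shared mature sequence may thus be understated in the ranks, medians and sums against which Mir22 and Mir26b are set. Mir26b was much lower than Mir22 but well above the median feature with a read, and neither Mir26a locus exceeded 3 reads in either library. All 4 members together held 4091 reads, 3.70% of the miRNA reads (3.59% to 3.82%), in mESCs and 7787 reads, 5.02% (4.91% to 5.13%), in prospermatogonia. Nearly all of this was Mir22.

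Mir22 had 3911 reads in mESCs, a deposited log2 value of 13.09, or 8698 RPM. In prospermatogonia it had 7349 reads, a deposited log2 value of 11.32, or 2561 RPM. It was thus the 6th most abundant of 285 features with a read in mESCs and the 4th of 317 in prospermatogonia. Its share of the miRNA reads was 3.54% (3.43% to 3.65%) in mESCs and 4.73% (4.63% to 4.84%) in prospermatogonia, so that the counting intervals of the 2 libraries did not overlap. Its rank was separated from its neighbours by more than counting error in both libraries. In mESCs it lay between Mir292, a member of the Mir290 cluster, with 5029 reads and CT010508.1, a feature with a clone name, with 3391 reads. In prospermatogonia it lay between mmu-mir-743b.1, an X-linked feature, with 9619 reads and Mir25 with 4250 reads. Set against the median feature with a read, Mir22 was 326-fold higher in mESCs and 612-fold higher in prospermatogonia.

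Mir26b had 178 reads in mESCs, a deposited log2 value of 8.63, or 396 RPM. In prospermatogonia it had 435 reads, a deposited log2 value of 7.24, or 152 RPM. Its share of the miRNA reads was 0.161% (0.138% to 0.187%) in mESCs and 0.280% (0.255% to 0.308%) in prospermatogonia, and these intervals did not overlap either. It ranked 56th in mESCs, with counting error allowing ranks 53 to 58, and 39th in prospermatogonia, with ranks 37 to 41. Mir26b was 14.8-fold above the median feature with a read in mESCs and 36.25-fold above it in prospermatogonia. The neighbours of Mir26b in rank could not be separated from it by counting error. These were Mir192 with 185 reads and Mir434 with 160 reads in mESCs, and Mir351 with 476 reads and Mir293 with 429 reads in prospermatogonia.

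Mir26a-1 had 0 reads in mESCs and 1 read in prospermatogonia. Mir26a-2 had 2 reads in each library. All 4 values were thus within the 3 reads that a count of 0 allows, and no fold difference is given. Mir26b accordingly held 98.9% of the reads of the 3 Mir26 features in mESCs (178 of 180) and 99.3% in prospermatogonia (435 of 438). Because the 5p sequence of both Mir26a loci is identical, these low values are values of the 2 features and not a measure of the amount of miR-26a.

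**Figure D1:**
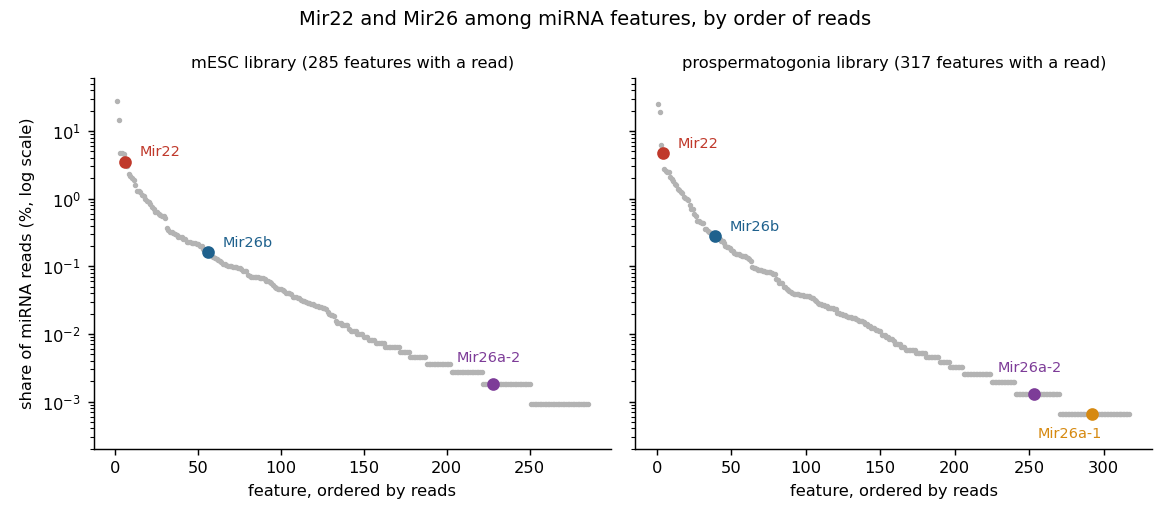
Share of miRNA reads (percent, log scale) of each feature with a read, ordered by reads, in the mESC library (left, 285 features) and the prospermatogonia library (right, 317 features), each a single library. Mir22 is 6th and 4th and Mir26b 56th and 39th, whereas Mir26a-2, with 2 reads, and Mir26a-1, with 1 read in prospermatogonia and none in mESCs (where it is not drawn), lie at the low end.

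The reads of features with shared mature sequences were therefore examined over the table. A RefSeq hairpin matched the exact position of 494 of the 1638 features (30.2%), and 488 of these had mature sequences. For 419 of them every mature sequence was listed for 1 locus only, and 176 of the 419 (42.0%) had more than 3 reads in at least 1 library. For 69, which include Mir26a-1 and Mir26a-2, at least 1 mature sequence was also that of another locus, and 20 of the 69 (29.0%) had more than 3 reads in at least 1 library. In mESCs 33.4% of the former and 14.5% of the latter exceeded 3 reads, and in prospermatogonia 36.5% and 23.2%. Mir16-1 and Mir16-2, which share miR-16-5p of a broadly expressed miRNA, had 1 and 3 reads in prospermatogonia, within the same limit as Mir26a, and 4 and 4 in mESCs, just above it. A shared sequence did not go with few reads in every case. Mir92-1 and Mir92-2 share miR-92a-3p, and they had 5244 and 695 reads in mESCs and 29587 and 1087 in prospermatogonia. These pairs were chosen after their values were seen. How reads with several matches were counted is not given in the sources used here, and its part in the low values of Mir26a was not tested.

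**Figure D2:**
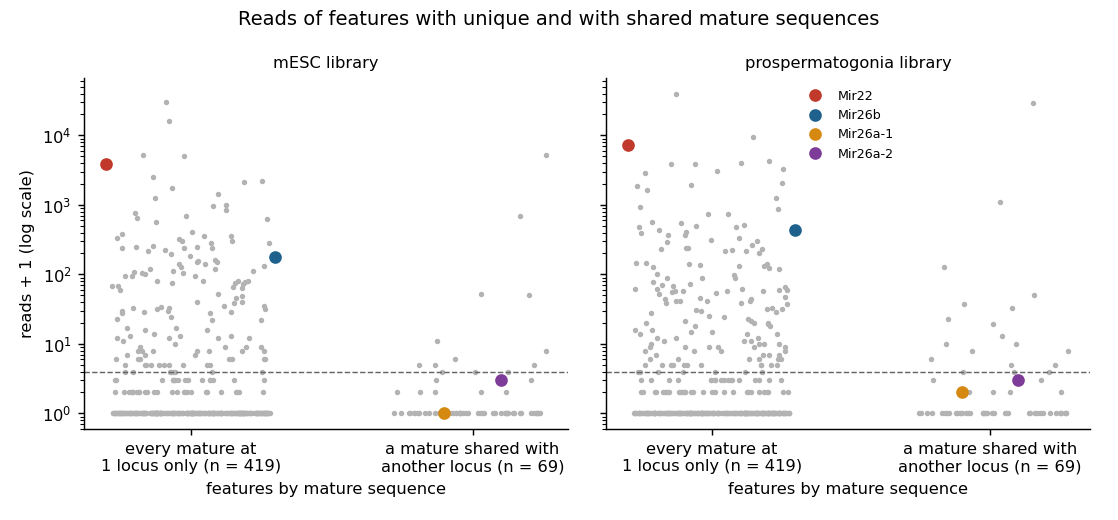
Reads + 1 (log scale) of 419 features whose mature sequences occur at 1 locus only and of 69 with a mature sequence shared with another locus, in each library. Points are features, and the dashed line marks 3 reads. Mir22 and Mir26b belong to the first class and lie high, whereas Mir26a-1 and Mir26a-2 belong to the second and lie below the line.

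The comparison of prospermatogonia with mESCs asked how the levels of these miRNAs differ between germ cells of the fetal testis and pluripotent cells. Its answer for Mir22 and Mir26b depended on what the levels were taken relative to. Relative to all reads of the library, both were lower in prospermatogonia, and relative to all miRNA reads, both were higher. With the values read as log2 RPM, miRNA features held 24.6% of all reads in mESCs and 5.41% in prospermatogonia. This difference sets the scales apart. The paper describes the smRNAs of mESCs as mostly miRNAs, and why the share found here is lower was not tested. Both scales differ by a single shift of all features, so that the position of a feature against the others is 1 observation, and both miRNAs stood above the median feature. In a bulk library, fewer cells with a miRNA and less of it per cell cannot be told apart.

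Relative to the library total, as deposited, Mir22 was 3.40-fold lower in prospermatogonia, with a log2 ratio of -1.76 (95% counting interval -1.82 to -1.71) on the scale of log2(RPM + 1). Mir26b was 2.61-fold lower, with a log2 ratio of -1.38 (-1.64 to -1.13). Both were thus at least 2-fold lower, as were 80.8% of the 203 features that reached 10 RPM in either library, so that both members share the direction of most features. At least 2-fold higher were 9.85% of the 203. The median log2 ratio of the 203 features was -2.52. Mir22 lay 0.75 above this median and Mir26b 1.14 above it, and 140 and 154 of the 203 features had a lower ratio than Mir22 and Mir26b. Mir26a-1 and Mir26a-2 were below 10 RPM in both libraries and were not among the 203.

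Relative to the summed miRNA reads, every log2 ratio rose by 2.18 before the pseudocount. Mir22 was then 1.34-fold higher in prospermatogonia, with a log2 ratio of 0.42 (0.36 to 0.48), and Mir26b was 1.74-fold higher, with a log2 ratio of 0.80 (0.54 to 1.06). Neither reached a 2-fold difference on this scale, on which 20.2% of the 203 features were at least 2-fold higher and 39.9% at least 2-fold lower. The median was -0.46, so that Mir22 lay 0.88 and Mir26b 1.26 above it. With scaling to the median ratio, Mir22 was at 0.61 and Mir26b at 0.99, also below a 2-fold difference, against a median of -0.28, with 22.2% of the features at least 2-fold higher and 36.5% lower. Since each scaling shifts all features alike, the distance to the median of the 203 moves only through the pseudocount between them. These scalings therefore do not check it, whereas the direction of Mir22 and Mir26b changes with them. The distance also depends on the filter, which takes fewer reads to pass in the smaller mESC library, and this can lower the median. Mir574, with 5 reads in mESCs and 0 in prospermatogonia, passed it, whereas Mir760, with 0 and 20, did not. The median ratio scaling is centred on the 111 features at 10 RPM in both libraries. Mir22 and Mir26b lay 0.61 and 0.99 above the median of these 111.

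**Figure D3:**
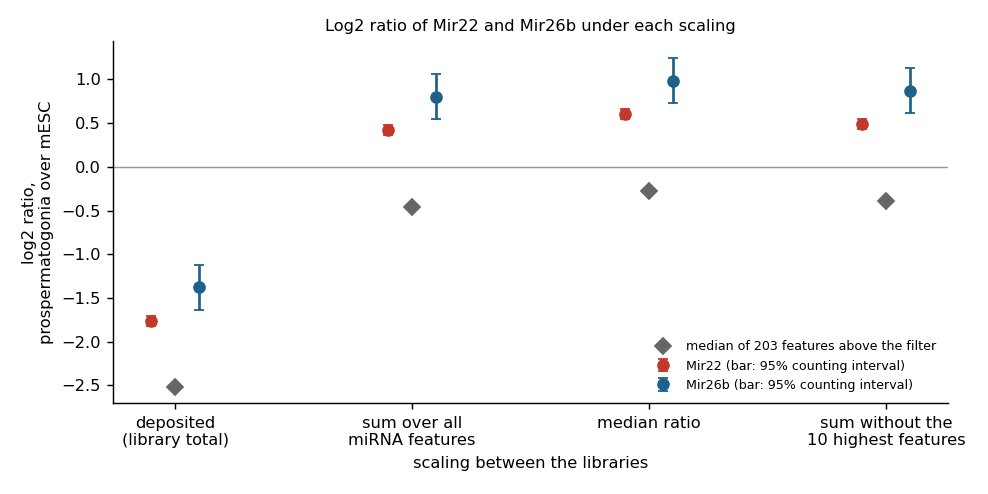
Log2 ratio of prospermatogonia over mESC for Mir22 and Mir26b (points, with bars for the 95% counting interval) and for the median (diamonds) of the 203 features with sufficient reads, under 4 scalings between the libraries. Both miRNAs lie below 0 with the deposited scaling (-1.76 and -1.38) and above 0 with the other 3. Each scaling shifts the median along with them.

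The balance between Mir22 and Mir26 within a library depends on no scaling. There were 21.7 reads of Mir22 for each read of the 3 Mir26 features in mESCs (18.7 to 25.4) and 16.8 in prospermatogonia (15.2 to 18.5). Per base of hairpin length the ratios were 19.4 and 15.0. The ratio in prospermatogonia was 0.772 times that in mESCs (0.643 to 0.925), a log2 difference of -0.37 (-0.64 to -0.11). This interval leaves out equal ratios, but replicate libraries, which could vary by more than the counting error, were not at hand. Since the reads of Mir26 were almost all of Mir26b, the ratio says little of miR-26a.

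The features most like Mir22 and Mir26b in both libraries were found by the distance between their log2 shares of miRNA reads in mESCs and in prospermatogonia, among 167 other features with more than 3 reads in both. Nearest to Mir22 was Mir183, a member of the cluster with Mir182 and Mir96, at a distance of 1.01, with 5173 reads in mESCs and 3859 in prospermatogonia. Mir148a, which is known to act on DNA methyltransferase mRNAs, followed at 1.08 with 2529 and 3985 reads, and Mir25, of the Mir106b-25 cluster, at 1.41 with 1738 and 4250 reads. Nearest to Mir26b were Mir301 at 0.50 with 248 and 391 reads, Mir872 at 0.68 with 141 and 289 reads, and Mir140, a miRNA of cartilage and gonad soma, at 0.75 with 280 and 558 reads. With 2 libraries, such likeness describes 2 levels and no more.

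**Figure D4:**
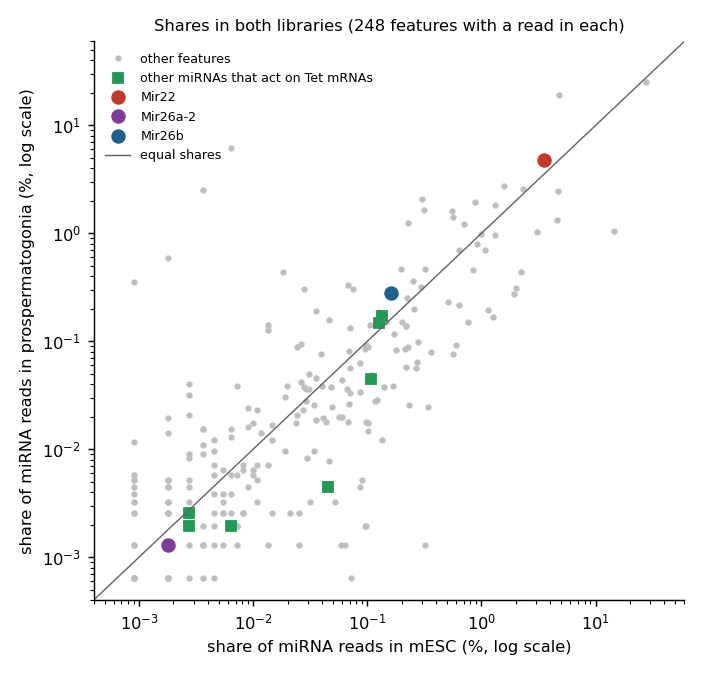
Share of miRNA reads in mESCs (x axis) against prospermatogonia (y axis), both in percent on log scales, for the 248 features with a read in each library; the line marks equal shares. Mir22 and Mir26b lie above the line, with 3.54% and 4.73% for Mir22 and 0.161% and 0.280% for Mir26b, Mir26a-2 lies at 2 reads in each library, and of the other miRNAs that act on Tet mRNAs only Mir101a and Mir101b among those above the filter lie above the line.

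Other miRNAs known to act on Tet mRNAs, of the Mir29, Mir101, Mir125b and Mir7 families, were much lower than Mir22. Of 12 names 11 were listed, and they held 470 reads in mESCs, 0.426% of the miRNA reads (0.388% to 0.466%), and 585 in prospermatogonia, 0.377% (0.347% to 0.409%). Mir22 alone had 8.32 times their sum in mESCs and 12.6 times in prospermatogonia, and none of the 11 exceeded Mir26b in either library. These comparisons may understate the list, since the Mir125b pair, the Mir29b pair, and Mir7-1 with Mir7-2 each share a mature sequence, like the Mir26a loci. The highest of the 11 was Mir101b in both, with 148 and 268 reads, close to Mir101a with 139 and 231 reads.

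Of the 11 features, 5 were above 10 RPM in at least 1 library. All 5 were at least 2-fold lower in prospermatogonia as deposited, against 80.8% of the 203 features. Their median log2 ratio was -3.02, beside -2.52 for all 203. The value of -3.02 is that of Mir7-1 (-6.48 to -1.77), whose 3 reads in prospermatogonia lie within the limit for a count of 0. Relative to the summed miRNA reads, 3 of the 5 were at least 2-fold lower, none was higher, and the median was -1.28 beside -0.46. Mir101a and Mir101b had log2 ratios of 0.24 (-0.07 to 0.56) and 0.36 (0.07 to 0.67) on this scale, and the counting interval of Mir101a includes equal shares. Mir29a, with 120 reads in mESCs and 69 in prospermatogonia, had a log2 ratio of -1.28 (-1.74 to -0.85). Mir125b-1 had 50 reads in mESCs and 7 in prospermatogonia, a log2 ratio of -3.22 (-4.71 to -2.18), and it shares miR-125b-5p with Mir125b-2, which had 3 and 4 reads. Mir7-1 had 7 and 3 reads, a log2 ratio of -1.53 (-4.30 to 0.42), and this interval also includes equal shares. Mir125b-1, with 111 RPM in mESCs and 2.44 in prospermatogonia, and Mir7-1, with 15.6 and 1.05, passed the filter only through mESCs. The filter itself thus favoured a lower ratio for Mir125b-1 and Mir7-1. Of the rest, Mir29b-1, Mir29b-2, Mir7-2 and Mir7b had no read in either library and Mir29c had 3 in each. Mir29b-1 and Mir29b-2 share miR-29b-3p, and Mir7-1 and Mir7-2 share miR-7a-5p, so that the same limit holds for these features as for Mir26a.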

How the data were processed

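smRNA-seq was made by the authors from total RNA with a small RNA kit and a gel selection of the cDNA by size. They trimmed the reads (Trim Galore 0.4.1 in the submitters' processing notes) and mapped them with Bowtie through piPipes. The methods name mm9, whereas the processing notes name GRCm38, and the positions of the members were those of GRCm38. The authors deposited log2 values for 1638 miRNA features, and the step from mapped reads to values, its use of strand and its treatment of reads with several matches are not given in the sources used here. The unit was read as log2 RPM.

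Features without a read held the log2 of 0.9 reads and were set to 0 reads. Shares were taken of the summed reads of the table, with exact (Clopper-Pearson) 95% intervals. Ratios between libraries were log2((RPM + 1) / (RPM + 1)) with exact conditional intervals of the reads, and the change of the Mir22 to Mir26 ratio was a conditional odds ratio. Features that reached 10 RPM in either library and differed at least 2-fold were counted. Each group, taken from the sample titles, had 1 library, so that no test was run.

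The members, the list of other miRNAs known to act on Tet mRNAs and the marker lists were chosen with earlier results of these data known. Named features were the members, these lists, the neighbours in rank and the 3 nearest features by shares, and others are said to have been chosen after their values were seen. Scripts were tested on simulated data. The software was Python 3.11.15 with scipy 1.17.1, numpy 2.4.6, matplotlib 3.10.9 and pandas 2.3.3.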

Additional observations from a re-analysis of the deposited data

How the results depend on the processing

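With single libraries, no replicate could be left out. No paired analysis was possible because mESCs and prospermatogonia were each sequenced in a single library. The direction of the log2 ratios reversed with the scaling, which shifts every feature alike. Scaled to all miRNA features, to the median ratio and to the sum without the 10 highest features of each library, Mir22 went from -1.76 to 0.419, 0.609 and 0.491, Mir26b from -1.38 to 0.797, 0.986 and 0.869, and the summed Mir26 features from -1.39 to 0.79, 0.98 and 0.862. The median of all features went from -2.52 to -0.459 when scaled to all miRNA features. Pseudocounts of 0.1 and 5 kept these ratios within their counting intervals.

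Features at least 2-fold higher numbered 20 of 203, 40 of 354 with all features that had a read and 5 of 111 with 10 RPM in both libraries. They numbered 41 of 203 scaled to all miRNA features and 45 of 203 with the median ratio. Features at least 2-fold lower numbered 164, and 230, 91, 81 and 74 under these settings, in the same order and of the same numbers of features. Of the calls, 10.9% were higher as deposited, and 14.8%, 5.21%, 33.6% and 37.8% under these settings.

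The share of Mir22 in mESCs was 3.67% of the reads on named features. Without the 10 highest features of each library, among which Mir22 is, the share of Mir26b was 0.58% in mESCs and 1.06% in prospermatogonia, since the sum is smaller. The ratio of Mir22 to Mir26 in prospermatogonia was 15 per base of hairpin, against 16.8. Mir26a-1 and Mir26a-2 lie within 3 reads in both libraries, which held 110455 (mESCs) and 155237 (prospermatogonia) reads on miRNA features. The cause was not tested.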
